A study of Mus musculus with 6 samples.

Results

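Epidermal growth factor (Egf), hepatocyte growth factor (Hgf) and the A and B chains of platelet-derived growth factor (Pdgfa and Pdgfb) are the 4 epithelial and mesenchymal growth factors described here, taken by name from the plate map of a qRT-PCR array that held 84 genes of interest. All 4 were among the 82 genes with enough Ct values to be tested. The RNA came from the back skin of 6 female Balb/c mice, 10 weeks old when irradiated at 5.8 Gy and then grafted with bone marrow of C57BL/6J mice from which T and B cells had been removed (5000000 cells) and with splenocytes of that strain (1000000 cells), which gives graft-versus-host disease (GVHD). GVHD controls were 3 of them (animals 1, 2 and 3), and the other 3 (animals 4, 5 and 6) had also been given CpG-proBs (750000 cells), B-cell progenitors that had been activated with the TLR-9 agonist CpG. Skin was taken at day+70 after irradiation, and both groups carried the irradiation and the allogeneic graft, so the plate holds no healthy skin. In whole skin, fewer cells that make a transcript and less RNA per cell cannot be told apart.

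The 4 proteins are secreted ligands of receptor tyrosine kinases. EGF binds the EGF receptor, drives growth of keratinocytes and other epithelial cells and belongs to the signals of wound closure. HGF is made mainly by mesenchymal cells and acts on epithelial cells through the receptor MET. PDGF-A and PDGF-B form dimers that act on fibroblasts, smooth muscle cells and pericytes. PDGF-A signals through the PDGF alpha receptor and is made in skin by the epidermis and hair follicles, while PDGF-B also binds the beta receptor and is known from platelets, endothelium and macrophages. The plate map lists no receptor of these ligands and no keratinocyte gene. The collagen genes of fibroblasts were detected in all 6 animals, with a mean Ct of 23.4 for Col1a2 and 25.4 for Col3a1.

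Egf lies on chromosome 3, Hgf and Pdgfa on chromosome 5 and Pdgfb on chromosome 15, and all 4 transcript accessions of the plate map were found under the same symbol in the RefSeq gene table of GRCm38.p6. RefSeq start sequences matched 3 of the 4 genes (Egf, Hgf and Pdgfa). The 250 bases before the outermost listed start are shown for Egf and Pdgfa because the animal groups did not overlap for either gene and differed in opposite directions, with the GC box GGGCGG, the letters bound by Sp1, in capitals on either strand where it occurs.
Egf, GRCm38.p6, chr3:129755323-129755572, minus strand: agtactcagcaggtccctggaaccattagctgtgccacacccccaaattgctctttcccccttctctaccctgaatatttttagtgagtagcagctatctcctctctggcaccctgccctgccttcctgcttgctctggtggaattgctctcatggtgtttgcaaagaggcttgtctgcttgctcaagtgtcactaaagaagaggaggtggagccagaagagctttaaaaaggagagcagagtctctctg
Pdgfa, GRCm38.p6, chr5:138994945-138995194, minus strand: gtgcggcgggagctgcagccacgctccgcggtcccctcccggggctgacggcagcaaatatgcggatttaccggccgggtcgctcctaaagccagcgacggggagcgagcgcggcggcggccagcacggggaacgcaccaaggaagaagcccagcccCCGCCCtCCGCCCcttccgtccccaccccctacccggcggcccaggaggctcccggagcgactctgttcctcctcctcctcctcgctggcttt
The Pdgfa stretch held 2 such boxes, both as CCGCCC, with a GC content of 72.4% and 28 CG pairs. The Egf stretch had none, at 50.4% GC and 0 CG pairs, nor had that of Hgf, at 50.8% GC and 4 CG pairs. Of 32851 start sequences of this length in the table, 32.7% held the box, and the median GC content was 52.4%. These letters describe the sequence and no binding was measured.

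The Ct, the cycle at which the SYBR Green signal of a well crossed a set level, falls by 1 when the cDNA doubles at full efficiency. Egf had a Ct of 26.91, 28.29 and 25.98 in GVHD controls 1, 2 and 3 and of 24.27, 25.17 and 25.26 in CpG-proB recipients 4, 5 and 6. Every recipient thus crossed earlier than every control, by at least 0.72 cycles. Pdgfb crossed at 26.09, 27.65 and 26.05 in the controls and at 24.56, 25.71 and 25.31 in the recipients, again without overlap. Pdgfa went the other way, from 26.13, 27.40 and 26.86 in controls to 27.41, 28.00 and 27.96 in recipients. The gap between the groups was only 0.01 cycles for Pdgfa. Hgf had the highest mean Ct of the 4, with 27.57, 28.48 and 27.86 in controls and 28.03, 29.24 and 27.59 in recipients, and its groups overlapped. Of the 82 genes tested, 11.0% had a lower Ct in all recipients than in all controls, as Egf and Pdgfb did, and 14.6% a higher one, as Pdgfa did.

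**Figure D1:**
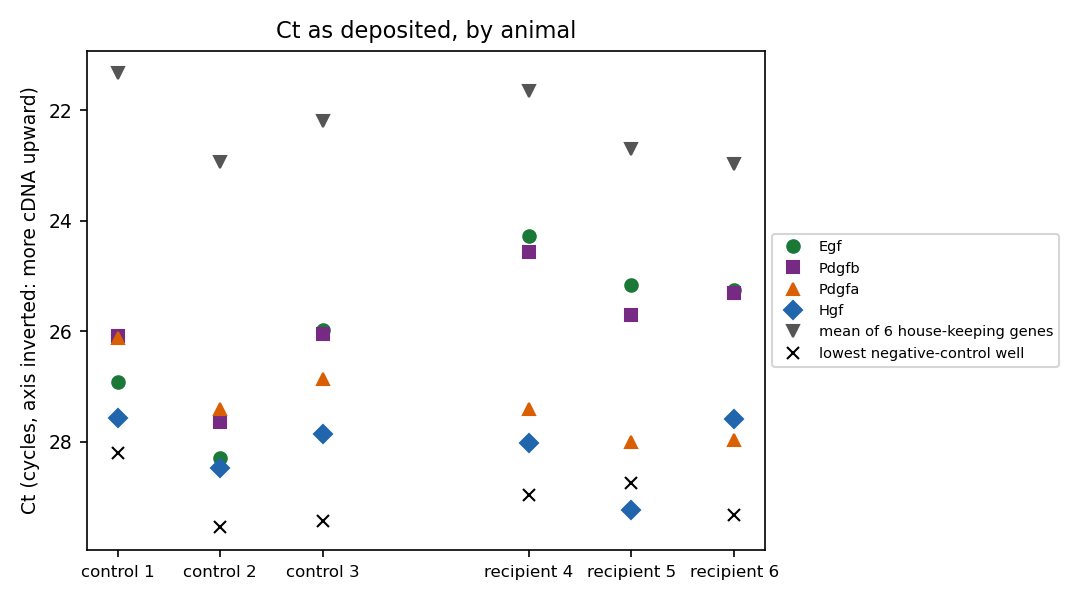
Ct in cycles for Egf, Pdgfb, Pdgfa and Hgf, for the mean of 6 house-keeping genes and for the lower of the 2 negative-control wells in each of the 6 animals, with the axis inverted so that more cDNA is higher. Egf and Pdgfb lie between 24.27 and 25.71 in the recipients and between 25.98 and 28.29 in the controls, and Hgf has the highest Ct of the 4 in every animal but recipient 6, where Pdgfa does.

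How far these values stood from background was read from the 2 negative-control wells of each animal, which gave Ct values from 28.21 to 30.13 over the plate. Pdgfb stayed 1.9 to 4.41 cycles before the lowest negative-control well of its own animal and Egf 1.26 to 4.70 cycles. Pdgfa came as close as 0.74 cycles. Hgf passed that well in 1 of 6 animals, recipient 5, by 0.50 cycles, and had at most 1.73 cycles to spare in the others. Set against the lowest negative-control Ct of the whole plate, Egf was past it in 1 animal (control 2) and Hgf in 2 (control 2 and recipient 5). Hgf thus had the highest Ct of the 4 genes in every animal but recipient 6, where Pdgfa had. Ct values of different genes also depend on their primers, so they do not rank the 4 transcripts by amount.

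For comparison between animals, −ΔCt was formed as the mean Ct of 6 house-keeping genes (Ppia, Tbp, B2m, Rplp0, Tfrc and Gusb) minus the Ct of the gene, a log2 scale on which a higher value is more RNA. The reference was 21.3, 22.9 and 22.2 cycles in controls and 21.7, 22.7 and 23.0 in recipients, and differed by 0.293 cycles between the groups (two-sided exact permutation test, p = 0.6). The study set its threshold at a 1.4-fold change with p not above 0.05, computed in the Qlucore software. Here a gene was called at the same cut-offs, named the threshold of the study below, but with an unadjusted p from limma. This called 2 of the 4 growth factors, Egf and Pdgfb, both higher in recipients, where 12.2% of the 82 genes were called higher and 4.88% lower. No exact permutation p below 0.1 is possible with 3 animals against 3.

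Egf rose 5.47-fold. Its −ΔCt was −5.57, −5.35 and −3.78 in the GVHD controls, and the CpG-proB recipients had −2.61, −2.46 and −2.28. Control 3 stood 1.57 above the next control and still 1.17 below the lowest recipient, and the recipients lay within 0.33 of each other. Controls averaged −4.90 ± 0.98 (SD, n = 3) and recipients −2.45 ± 0.17 (SD, n = 3), which makes a log2 fold change of 2.45 with a 95% interval of 1.29 to 3.62 (adjusted p = 0.0153, limma with Benjamini-Hochberg adjustment over 82 genes; exact permutation p = 0.1). Egf was 1 of the 2.44% of genes with an adjusted p not above 0.05, all higher in recipients, and it ranked as the second of 82 both by p and by size of change. The adjusted p exceeded 0.05 without control 2 (0.089), recipient 5 (0.0603) or recipient 6 (0.219), with Gusb, B2m and Tbp as the reference (0.0687), without normalization (0.199) and with the own variance of each gene (0.21), with a range over 29 alternatives from 4.18e-05 to 0.219, while the threshold of the study was passed in all 29.

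Pdgfb rose 3.24-fold. Its −ΔCt was −4.75, −4.71 and −3.85 in controls and −2.90, −3.00 and −2.33 in recipients. As for Egf, control 3 was the highest control and recipient 6 the highest recipient, and the groups were 0.85 apart. Controls averaged −4.44 ± 0.51 (SD, n = 3) and recipients −2.74 ± 0.36 (SD, n = 3), with a log2 fold change of 1.70 and a 95% interval of 0.62 to 2.77 (adjusted p = 0.061 from limma, exact permutation p = 0.1). Pdgfb thus passed the threshold of the study and missed an adjusted p of 0.05, and over 29 alternatives its adjusted p ranged from 0.00119 to 0.474. With the Ct left without a reference the change was 1.4 and did not pass.

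Pdgfa was lower in every recipient than in every control and was not called with the limma p. The study, with its own processing, reported Pdgfa as downregulated in CpG-proB recipients. The levels were −4.79, −4.46 and −4.66 in controls and −5.75, −5.29 and −4.98 in recipients. Recipient 6, the recipient nearest to the controls, was 0.19 below control 1. The means were −4.64 ± 0.17 (SD, n = 3) and −5.34 ± 0.39 (SD, n = 3). The log2 fold change of −0.70, or 0.615 times the control level, had a 95% interval from −1.74 to 0.33 (adjusted p = 0.432 from limma, exact permutation p = 0.1), which holds a large fall as well as a small rise. Among the 82 genes, 4.88% had all recipients below all controls on this scale and 15.9% all recipients above, the latter including Egf and Pdgfb. Pdgfa was called when each gene kept its own variance, where 3.66% of genes were called lower.

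Hgf did not separate the groups. Its −ΔCt was −6.23, −5.54 and −5.66 in controls and −6.37, −6.53 and −4.61 in recipients, so that recipient 6 was the highest of all 6 animals and the other recipients were the lowest. The means were −5.81 ± 0.37 (SD, n = 3) and −5.84 ± 1.07 (SD, n = 3). The log2 fold change was −0.02 with a 95% interval from −1.23 to 1.19 (adjusted p = 0.985 from limma, exact permutation p = 1). Changes inside this interval were not excluded with these animals. Without recipient 6 the value was −0.64, still not called.

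**Figure D2:**
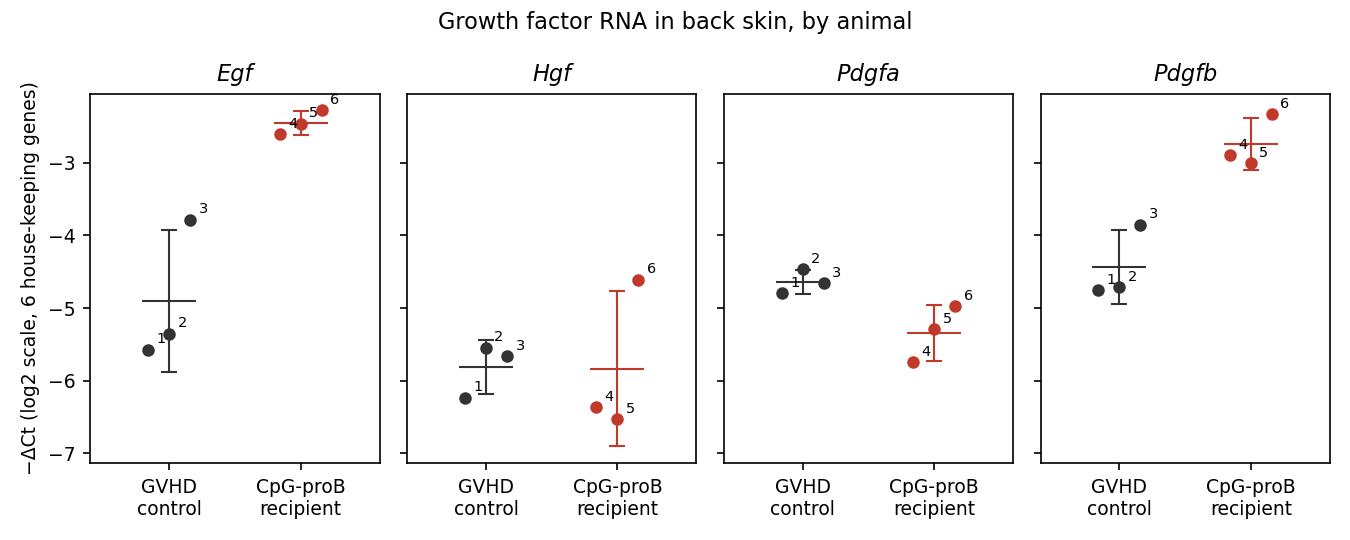
−ΔCt on a log2 scale of Egf, Hgf, Pdgfa and Pdgfb in 3 GVHD controls and 3 CpG-proB recipients, with the animal number beside each point, the mean as a wide line and the SD as the error bar. The groups do not overlap for Egf (1.17 apart), Pdgfb (0.85 apart) and Pdgfa (0.19 apart), and they overlap for Hgf.

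The 2 PDGF chains were compared within each animal, where the reference cancels. The Ct of Pdgfa minus that of Pdgfb was 0.04, −0.25 and 0.81 cycles in GVHD controls 1, 2 and 3. In CpG-proB recipients 4, 5 and 6 it was 2.85, 2.29 and 2.65 cycles. The chains thus crossed within 1 cycle of each other in all controls and more than 2 cycles apart, Pdgfb first, in all recipients. The mean moved from 0.20 ± 0.548 (SD, n = 3) to 2.60 ± 0.284 (SD, n = 3) cycles, a shift of 2.40 cycles or 5.27-fold towards the B chain (two-sided exact permutation test, p = 0.1; adjusted over 6 pairs, 0.15). With each animal left out in turn the shift stayed between 2.17 and 2.70 cycles.

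Of the 6 pairs that the 4 genes form, 4 did not overlap between the groups, against 26.1% of the 3321 pairs among all genes tested. Egf moved most against Pdgfa. The difference in Ct, Egf minus Pdgfa, was 0.78, 0.89 and −0.88 cycles in controls and −3.14, −2.83 and −2.70 in recipients, a shift of −3.15 that was matched or exceeded in size by 53 of the 3321 pairs. Against Hgf, Egf went from −0.91 ± 0.872 (SD, n = 3) to −3.39 ± 0.928 (SD, n = 3) cycles. The Hgf to Pdgfb difference moved from 1.37 ± 0.499 (SD, n = 3) to 3.09 ± 0.705 (SD, n = 3) cycles. Each of these had an exact permutation p of 0.1, or 0.15 over the 6 pairs. The other 2 pairs overlapped, with a shift of −0.76 cycles for Egf minus Pdgfb (exact permutation p = 0.2) and of −0.68 for Hgf minus Pdgfa (exact permutation p = 0.3). For the Pdgfa and Pdgfb pair, 202 of the 3321 pairs shifted as far or farther. Since genes are shared between pairs, these counts are not independent.

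**Figure D3:**
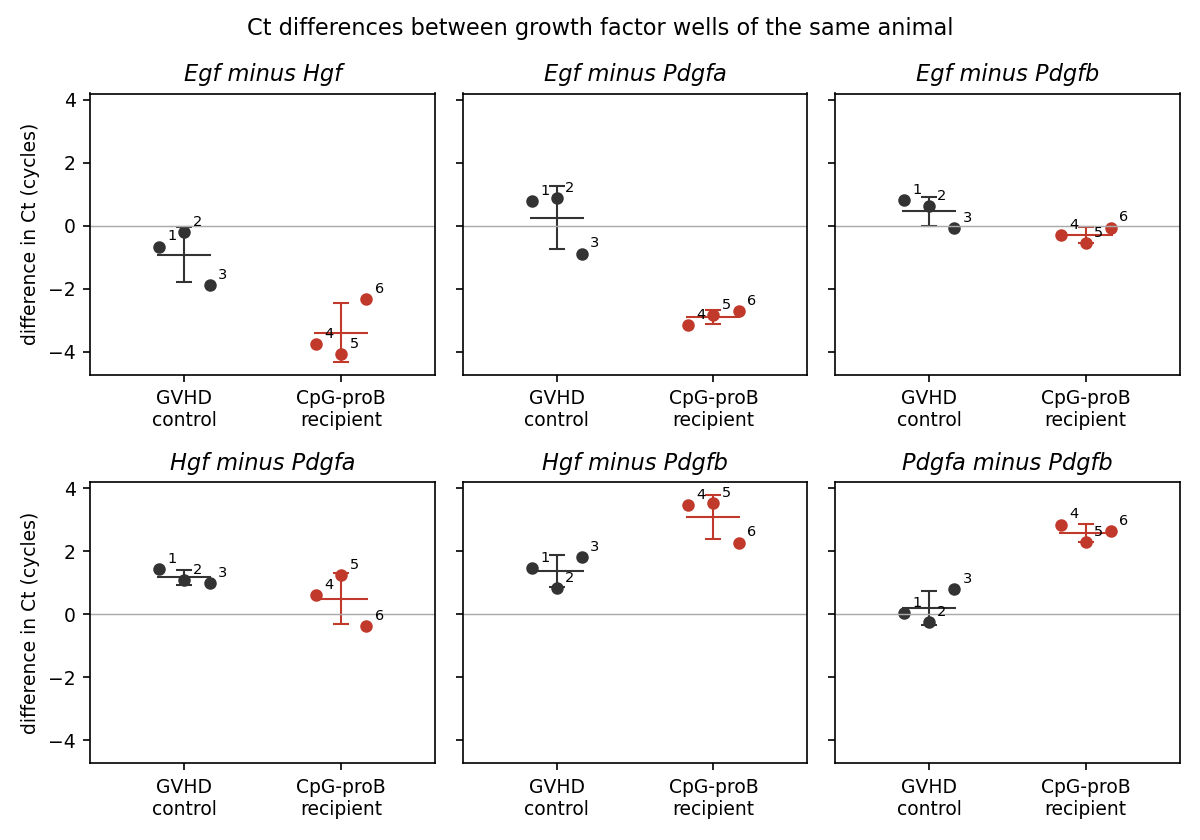
Difference in Ct, in cycles, between 2 growth factor wells of the same animal for the 6 pairs, with the mean as a wide line and the SD as the error bar over 3 animals per group. For Pdgfa minus Pdgfb the controls lie between −0.25 and 0.81 and the recipients between 2.29 and 2.85.

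The choice of reference shifted all genes alike. With all 8 house-keeping genes of the plate, which adds Actb and Hprt, the median log2 fold change of the 82 genes moved from 0.11 to 0.41. It was −0.35 when Gusb, B2m and Tbp, the house-keeping genes whose Ct varied least, made the reference, 0.86 with Ppia, Tbp and Actb, and 1.44 with Actb alone, the last pair of references having been chosen after seeing the data. Actb itself had a Ct of 19.0 ± 0.806 (SD, n = 3) in controls and of 20.6 ± 0.977 (SD, n = 3) in recipients, with the groups 0.03 cycles apart, while B2m went from 19.2 ± 0.378 (SD, n = 3) to 18.4 ± 0.674 (SD, n = 3) and overlapped. With all 8 house-keeping genes the log2 fold change was 2.75 for Egf and 1.99 for Pdgfb. Both kept their direction under each of the 7 references, from 1.99 to 3.78 and from 1.23 to 3.03 on the log2 scale. Pdgfa did not, as its log2 fold change was −1.16 with Gusb, B2m and Tbp, where it was called together with 19.5% of genes lower, −1.12 with the median Ct over the plate's genes of interest (called, likewise beside 19.5% lower), −0.41 with all 8, 0.05 with Ppia, Tbp and Actb and 0.63 with Actb alone. Relative to the median of the 82 genes, under any of these references, Egf was higher by 2.34 and Pdgfb by 1.58, Hgf was at −0.14 and Pdgfa at −0.81 on the log2 scale.

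**Figure D4:**
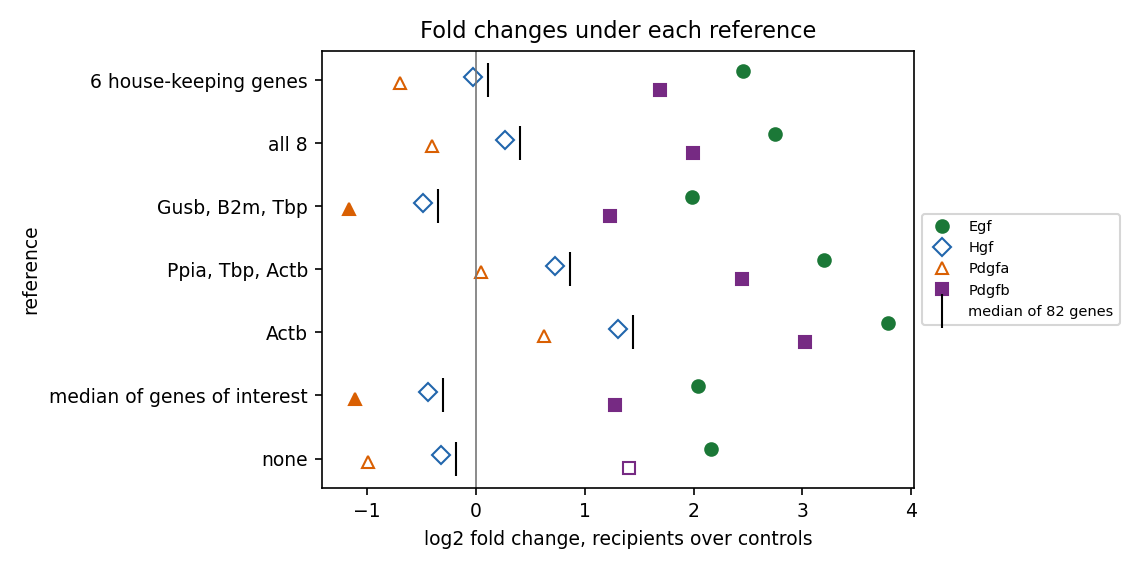
Log2 fold change, recipients over controls, of Egf, Hgf, Pdgfa and Pdgfb under 7 references, with filled symbols for values past the threshold of the study and a black bar for the median of the genes tested. Egf and Pdgfb stay to the right of 0 throughout, while Pdgfa moves from −1.16 to 0.63 and Hgf follows the median.

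Other secreted growth factors of the plate were listed beside them, namely Vegfa, which drives vessel growth, Tgfb1, Tgfb2 and Bmp7 of the TGF-beta superfamily, and Ctgf, a matricellular protein that TGF-beta induces. None of the 5 was past the study's threshold with the reference of 6, where 12.2% of all genes were called higher and 4.88% lower. Their log2 fold changes were 0.90 for Tgfb2, 0.78 for Vegfa, 0.77 for Ctgf, −0.62 for Bmp7 and −0.73 for Tgfb1, with a median of 0.77 against 0.11 over all 82 genes. Tgfb2 and Ctgf were higher in all recipients than in all controls, where 15.9% of the 82 genes were, and the other 3 overlapped.

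The second list held receptor kinases and signalling genes. Kit, a receptor of the same structural class as the PDGF receptors, lacked a Ct in 3 animals and was not tested. Csf1r, the macrophage receptor for CSF-1 and also of that class, rose by 1.30 on the log2 scale (95% interval 0.23 to 2.37, adjusted p = 0.183 from limma). It was the 1 of 4 tested genes past the threshold, beside 12.2% of all genes called higher. For Akt1, a kinase downstream of most growth factor receptors, the log2 fold change was 0.05 (95% interval −0.99 to 1.09). For Myc, a gene that growth factors induce, it was 0.31 (95% interval −0.72 to 1.34), and neither was called. Nfkb1, a subunit of NF-kappa-B, was at 0.35, and the median of the 4 was 0.33.

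Among 5 genes connected with PDGF or with matrix-building cells, Col3a1, the chain of type III collagen, fell by 1.45 on the log2 scale (95% interval −2.59 to −0.31, adjusted p = 0.18 from limma). Cxcr4, a chemokine receptor carried by fibrocytes, fell by 1.08 (95% interval −2.15 to −0.01, adjusted p = 0.284 from limma). The other 3 did not pass, with 0.16 for Col1a2, of type I collagen, 0.48 for Acta2, the smooth muscle actin of myofibroblasts, and 0.95 for Cav1, a caveolar protein of endothelium and fat cells. These 2 of 5 called lower stand beside 4.88% of all genes, and the median of the 5 was 0.16. Col3a1 and Cxcr4 were listed because the study's text on these samples connects them with Pdgfa. Their place in the list is thus not independent evidence of the direction of Pdgfa. For the same reason the 2 of 5 cannot be read as an excess over the 4.88%.

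**Figure D5:**
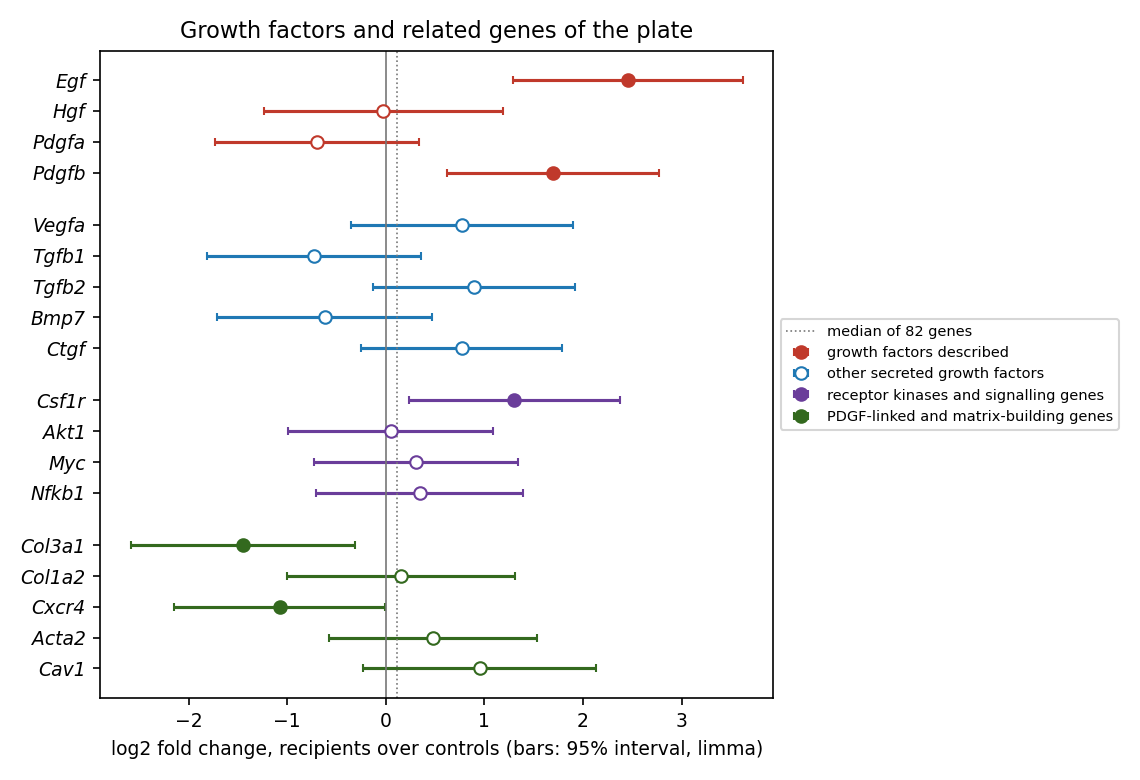
Log2 fold change, recipients over controls, with the 95% interval of limma for the 4 growth factors and for 14 other genes of the plate in 3 lists. Filled symbols are past the study's threshold, and the dotted line is the median of the 82 genes at 0.11. The intervals of Egf, Pdgfb, Csf1r, Col3a1 and Cxcr4 do not reach 0.

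The animals behind these levels were compared for immune cell genes, since macrophages are a source of PDGF-B. The summed level of 6 genes (Adgre1, Cd68 and Csf1r of macrophages and Gzmb, Tbx21 and Eomes of T or NK cells) lay between −2.47 and −1.26 on the log2 scale for controls and between −2.28 and −1.77 for recipients, so the groups overlapped. This sum mixes macrophage with T and NK cell genes and depends on the primers of each, and Tbx21 adds little to it. The macrophage genes in it also went in different directions, so the overlap cannot show whether macrophage content differed. Of these genes, 1 of 6, Csf1r, was higher in all recipients, a share close to the 15.9% of all genes. Adgre1, which encodes F4/80, was at −0.60 and Cd68 at −0.56. None of the 6 lacked a Ct, though Tbx21 crossed no earlier than the first negative-control well of the plate in all 6 animals, Adgre1 in 3, Eomes in 2 and Gzmb in 1. The part of cell composition in the levels of Egf and Pdgfb was not tested.

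For each growth factor, up to 3 genes with the most similar −ΔCt over the 6 animals are named, ranked by Pearson's r. Points share the reference and fall into the 2 groups, so these values describe the animals and carry no p. Egf was most like Thbs2, a matricellular thrombospondin (r = 0.99), Pdgfb (r = 0.98) and the alarmin Il33 (r = 0.96). Pdgfb was most like Egf, followed by Thbs2 (r = 0.95). After the mean of each group was subtracted, r was 0.98 for Egf with Thbs2 and 0.88 for Egf with Pdgfb, and control 3 was the highest control for both Egf and Pdgfb. Pdgfa was most like Cxcr4 (r = 0.96) and the collagenase gene Mmp13 (r = 0.95), followed by Timp1, an inhibitor of metalloproteinases (r = 0.93). Mmp13 crossed no earlier than the first negative-control well of the plate in 6 of 6 animals and Timp1 in 4, while Pdgfa and Cxcr4 crossed before that well in all. Hgf was most like the stromelysin gene Mmp3 (r = 0.895), Serpina1a (r = 0.77) and Smad2 (r = 0.73). Of these, Mmp3 and Serpina1a crossed no earlier than that well in 6 of 6 animals and Hgf itself in 2, so the likeness to those genes was read from wells not above background. Between the 2 PDGF chains, r was −0.68 over the 6 animals and 0.36 after the group means were subtracted.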

How the data were processed

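Levels of Egf, Hgf, Pdgfa and Pdgfb came from the deposited table of raw Ct values, with 96 wells for each animal. Per the labels, RNA from back skin was reverse transcribed with random primers and amplified with SYBR Green. How the Ct was called and whether wells were repeated is not given in the sources used here. Wells were matched to genes by the paper's plate map. Samples were grouped by their titles. A second deposited table holds only the authors' comparison of the groups and was not used here. The methods name 6 house-keeping genes without listing them, and an earlier analysis of these data chose the 6 used here as those closest to the authors' own group comparison, so the reference is not independent of that comparison. The arithmetic mean of their Ct was taken, with the geometric mean as an alternative.

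Genes needed 2 or more Ct values per group, which left 82, and their −ΔCt was fitted by limma 3.58.1 (lmFit, then eBayes, two-sided, with 12.7 prior degrees of freedom) in R 4.3.3 across all genes, with Benjamini-Hochberg adjustment. Empty wells stayed missing. Single values were compared by exact permutation over animals (scipy 1.17.1). The fit was tested on simulated data. Alternatives replaced the reference, the type of mean, empty wells, the filter, a Ct floor, the amplification factor, the variance model, the threshold and the animals. The members, the lists and the tests were chosen with earlier results of these data known. Named genes were the 4 growth factors, the members of the lists and up to 3 genes most like each growth factor. Some genes under these rules are not reported here. For that reason, and not for its values, 1 gene was left out of the count and median of the receptor kinases and signalling genes after the values had been seen, and the other lists are whole. Ct values carry no read counts, so the depth of a well is given by its Ct alone.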

Additional observations from a re-analysis of the deposited data

How the results depend on the processing

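Egf passed in all 29 alternatives, and Pdgfb in 27, under the threshold of the study or the stricter one that an alternative set in its place. Not every alternative was a challenge to these calls, as the amplification factor of 1.9 left p unchanged. Pdgfb did not pass without normalization (1.4) or when an adjusted p of at most 0.05 was required (1.70), and in both the number of growth factors past the threshold dropped from 2 to 1. Pdgfa passed with Gusb, B2m and Tbp as the reference (−1.16), with the median Ct over the plate's genes of interest (−1.12) and with the own variance of each gene (−0.70). It turned positive with Ppia, Tbp and Actb (0.05) and with Actb alone (0.63), both references chosen after seeing the data. The sign of Hgf was not stable, with 0.27 for all 8 house-keeping genes, 0.23 with a Ct floor at the lowest negative control, 0.19, 0.002 and 0.051 for the reference without B2m, Rplp0 or Gusb, 1.31 with Actb alone and 0.73 with Ppia, Tbp and Actb, and it passed in none of the 29. With each animal left out in turn, Hgf ranged from −0.64 to 0.32 and the shift of Pdgfa minus Pdgfb from 2.17 to 2.70 cycles. A Ct floor at the lowest negative control left that shift at 2.40 cycles, since no Pdgfa or Pdgfb well reached the floor. An amplification factor of 1.9 only rescaled it, to 2.22. Neither alternative could therefore test the shift. The causes were not tested. No paired analysis was possible because the groups share no animal numbers. With 3 animals per group, the 95% interval of a growth factor reached from 1.04 (Pdgfa) to 1.21 (Hgf) to each side of its log2 fold change.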
